A study of Mus musculus with 13 samples.

Results

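The flow-responsive transcription factors KLF2 and KLF4, the kinases that act above them, endothelial genes that they are known to raise and 3 proteases that cut versican were measured in brain tissue of mice with and without Pdcd10 in brain endothelium. These 10 genes (Map2k5, Mapk7, Klf2, Klf4, Klf6, Nos3, Thbd, Adamts1, Adamts4 and Adamts5) were taken by symbol from the 55416 Ensembl gene identifiers of the count table. All 10 were among the 22507 genes with enough counts to be tested.

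The series holds 13 messenger RNA libraries from whole brain tissue, in 4 groups: KO in hypoxia (n = 4), flox in hypoxia (n = 3), KO in normoxia (n = 3) and flox in normoxia (n = 3). KO mice carried Slco1c1-iCreERT2, a tamoxifen-dependent Cre recombinase driven by a promoter of brain endothelium, with both copies of Pdcd10 flanked by loxP sites (Pdcd10 fl/fl), and had been given 50 µg of 4-hydroxytamoxifen into the stomach on postnatal day 1. Flox mice were Pdcd10 fl/fl littermates without that Cre. Hypoxia was 12% oxygen for 7 days, and normoxia was 21% oxygen. The Slco1c1 promoter is known to act also in choroid plexus epithelium. The design text does not say whether flox mice were injected, so loss of Pdcd10, the Cre transgene and a possible injection cannot be told apart. The sources used here do not state the age at harvest. Nothing in the labels says which mouse a library came from, so each p-value reflects how far these libraries varied, which may be technical.

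KLF2 and KLF4 are zinc finger transcription factors that keep endothelium in a quiet, non-clotting state. Blood flow raises them through the kinase MEK5 (Map2k5), its substrate ERK5 (Mapk7) and MEF2 transcription factors. PDCD10, also called CCM3, belongs to a protein complex with KRIT1 and CCM2 that holds back the kinase MEKK3 above MEK5, and its loss in endothelium gives cerebral cavernous malformations, which are leaky clusters of enlarged brain vessels. KLF2 and KLF4 are known to raise Nos3 (endothelial nitric oxide synthase) and Thbd (thrombomodulin, an anticoagulant receptor), and ADAMTS1, ADAMTS4 and ADAMTS5 are secreted metalloproteases that cut versican and aggrecan in the matrix.

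The promoter sequence is shown for the 4 genes of the set that were higher in KO and have an entry in the RefSeq promoter table, since the values that follow turn on them. The table covers 6 of the 10 genes, matched by symbol, and its build is GRCm38.p6, which differs from the build of the counts. Each line gives the 150 bases before the annotated transcript start, 5′ to 3′ on the strand of the gene. They are Klf2 at chr8:72318912-72319061 (plus strand), Klf4 at chr4:55532476-55532625 (minus strand), Klf6 at chr13:5861339-5861488 (plus strand) and Adamts1 at chr16:85803114-85803263 (minus strand). Capitals mark the MEF2 consensus, the letters CACCC (a box bound by KLF proteins, read as GGGTG on the other strand) and the letters GGGCGG (a GC box, read as CCGCCC on the other strand).
Klf2: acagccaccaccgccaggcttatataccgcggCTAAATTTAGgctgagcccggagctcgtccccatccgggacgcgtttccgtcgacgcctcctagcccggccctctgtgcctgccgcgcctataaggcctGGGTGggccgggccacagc
Klf4: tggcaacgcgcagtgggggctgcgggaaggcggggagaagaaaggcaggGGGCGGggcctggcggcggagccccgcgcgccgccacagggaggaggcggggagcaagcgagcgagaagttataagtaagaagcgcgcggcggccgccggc
Klf6: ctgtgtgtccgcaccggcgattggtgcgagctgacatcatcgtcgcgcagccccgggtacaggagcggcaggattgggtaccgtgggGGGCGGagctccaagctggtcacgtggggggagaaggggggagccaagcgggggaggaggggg
Adamts1: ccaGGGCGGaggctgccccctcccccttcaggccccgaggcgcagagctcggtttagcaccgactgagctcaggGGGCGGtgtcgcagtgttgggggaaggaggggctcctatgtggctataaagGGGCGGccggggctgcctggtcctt

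Within the 250 bases before the transcript start, searched on both strands, the Klf2 promoter held 1 place with the MEF2 consensus, starting 118 bases before the start. That consensus was in 959 of 32851 promoters of the table (2.92%), and it was in none of the other 5 genes with an entry (Klf4, Klf6, Adamts1, Map2k5 and Mapk7). The letters CACCC were in 52% of all promoters and GGGCGG in 32.7%, so either is common background. Klf2 and Adamts1 each held CACCC once and Mapk7 4 times. Klf4 held GGGCGG at 4 places, Adamts1 at 3, Klf2 and Mapk7 at 2 each and Klf6 and Map2k5 at 1 each. The printed stretches had a GC content of 67.3% in Klf2, 74.0% in Klf4, 70.0% in Klf6 and 69.3% in Adamts1, against a median of 54% over all promoters. No place of one motif overlapped a place of another in the printed stretches. A match describes the letters in this window only.

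Libraries held between 42090437 and 71216636 counts. Levels are given in CPM, which are counts scaled to the size of the library, with TMM factors that correct for composition. A gene was called where the adjusted p of edgeR's quasi-likelihood test over all 22507 genes was below 0.05. All libraries are labelled male, but 4 of the 13 held Xist and at most 1 Y-linked count: KO hypoxia replicates 3 and 4, KO normoxia replicate 3 and flox normoxia replicate 3. Calls of the 10 genes that were lost in the other 9 libraries are named with their gene. Pdcd10 averaged 16.4 ± 1.09 CPM in KO hypoxia against 17.4 ± 0.194 in flox hypoxia, and 16.9 ± 1.07 in KO normoxia against 17.1 ± 0.80 in flox normoxia (SD). It was not called, at a log2 fold change of -0.05 ± 0.05 (SE, edgeR adjusted p = 0.566, mean of both oxygen levels). The tissue was whole and Cre is directed to endothelium, so this level does not check the genotype labels.

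In KO brains Klf2, Klf4, Klf6, Nos3, Thbd and Adamts1 were higher than in flox brains, by log2 fold changes between 0.40 and 1.68, while the kinases Map2k5 and Mapk7 and the protease Adamts5 were not called. Adamts4 ran the other way, lower in KO over the mean of both oxygen levels, with a call that most fits without 1 library lost. In hypoxia 6 of the 10 were called higher and 0 lower, where 6.78% of all genes tested were higher and 2.28% lower. In normoxia 5 were called higher and 0 lower (1 lower, Adamts4, at an unadjusted p under 0.05, as 5.74% of all genes were), with a background of 1.96% higher and 0.369% lower. Over the mean of both oxygen levels 6 were higher and 1 lower, against 7.78% and 3.7% of all genes. The median log2 fold change of the 10 was 0.76 in hypoxia and 0.52 in normoxia, while that of all genes tested was -0.01 and 0.00. For 6 of the 10 each KO library lay above each flox library at both oxygen levels, which held for 5.03% of all genes.

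**Figure D1:**
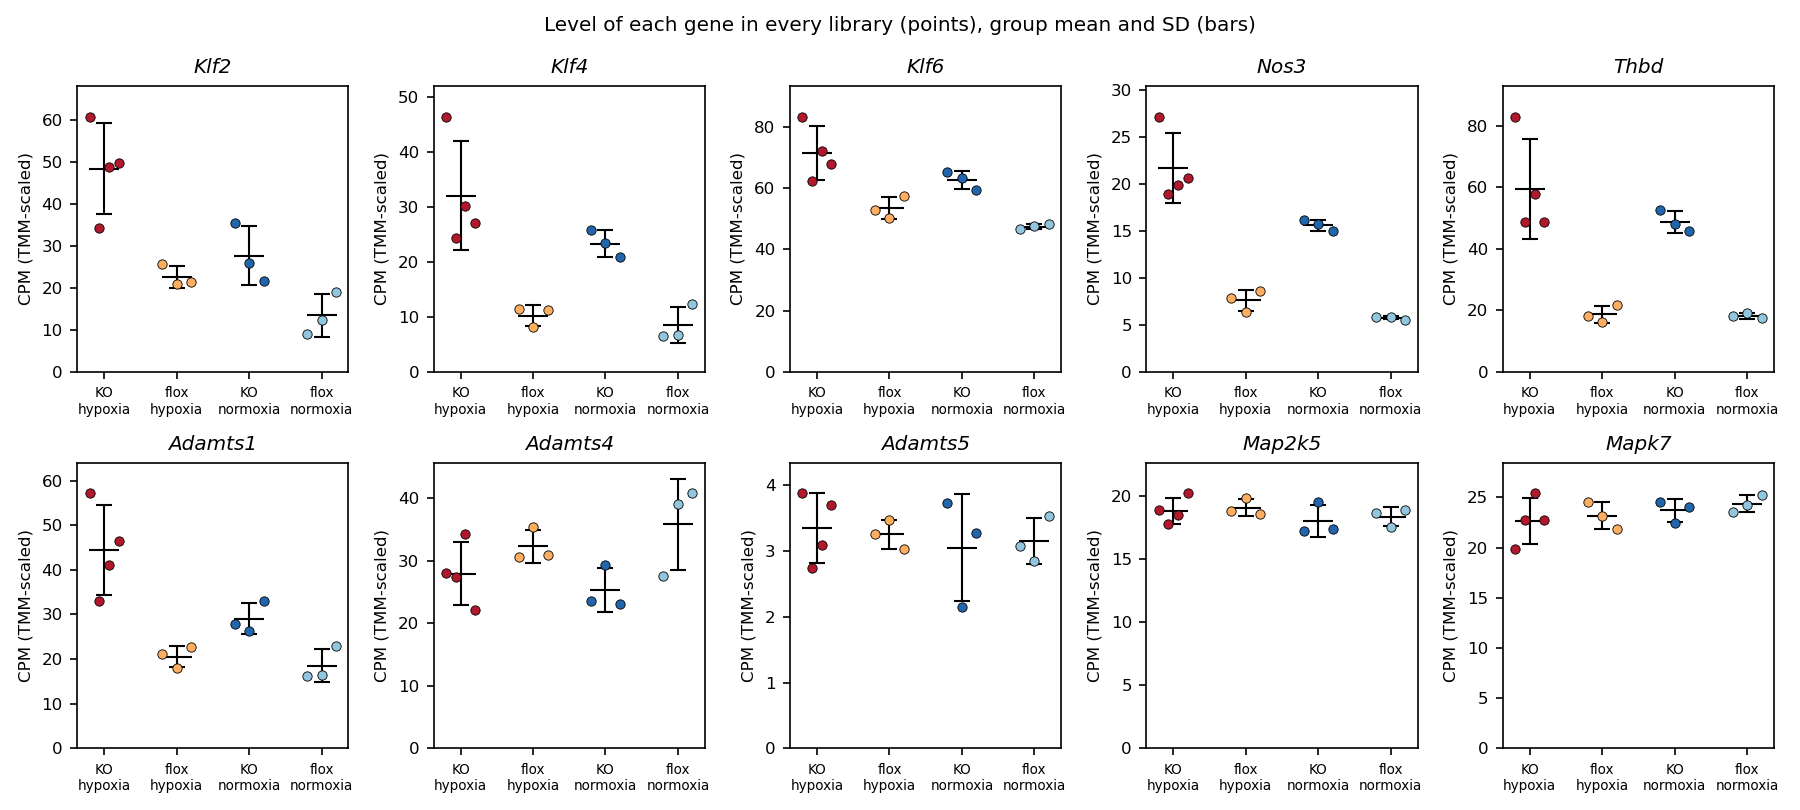
TMM-scaled CPM (vertical axis) of each of the 10 genes, with points for libraries and bars for the mean and SD of each group (KO hypoxia, flox hypoxia, KO normoxia, flox normoxia). Klf2, Klf4, Klf6, Nos3, Thbd and Adamts1 have every KO point above every flox point of the same oxygen level, and KO hypoxia replicate 1 is the highest point of its group for 7 of the 10 genes.

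Neither kinase was called in any comparison. Map2k5 (ENSMUSG00000058444, chromosome 9), which encodes MEK5 and overlaps Gm39355 in the annotation, was at 18.9, 17.8, 18.4 and 20.2 CPM in KO hypoxia and 18.8, 19.8 and 18.5 CPM in flox hypoxia. It was at 17.2, 19.5 and 17.3 CPM in KO normoxia and 18.6, 17.5 and 18.9 CPM in flox normoxia. All 4 groups overlapped, and the log2 fold change of KO against flox over both oxygen levels was -0.02, with a 95% interval from -0.12 to 0.08. Mapk7 (ENSMUSG00000001034, chromosome 11), which encodes ERK5, was at 19.8, 22.8, 25.4 and 22.8 CPM in KO hypoxia and 24.5, 23.2 and 21.9 CPM in flox hypoxia. Normoxia levels were 24.6, 22.4 and 24.1 CPM in KO and 23.6, 24.3 and 25.3 CPM in flox. These ranges also overlapped, with a log2 fold change of -0.04 and an interval from -0.15 to 0.08. The activity of MEK5 and ERK5 is set by phosphorylation, which messenger RNA does not measure.

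Klf4 (ENSMUSG00000003032, chromosome 4) had a larger fold change than Klf2, a gap that is tested further on. In hypoxia it was at 46.5, 24.3, 30.3 and 27.2 CPM in KO and 11.4, 8.15 and 11.3 CPM in flox. Normoxia gave 25.8, 23.5 and 20.9 CPM in KO and 6.55, 6.64 and 12.3 CPM in flox. Each KO library lay above each flox library, and flox normoxia replicate 3 came nearest. The log2 fold change was 1.65 ± 0.24 in hypoxia (SE, edgeR adjusted p = 0.000347), a 3.13-fold difference. It was 1.45 ± 0.25 in normoxia (adjusted p = 0.00438), a 2.74-fold difference.

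Klf2 (ENSMUSG00000055148, chromosome 8) was at 60.8, 34.2, 48.7 and 49.7 CPM in KO hypoxia and 25.6, 20.9 and 21.3 CPM in flox hypoxia. In normoxia it was at 35.3, 26.0 and 21.7 CPM in KO and 9.03, 12.3 and 19.0 CPM in flox. KO lay above flox at each oxygen level, but KO normoxia overlapped flox hypoxia, and KO hypoxia replicate 2 lay below KO normoxia replicate 1. The log2 fold change was 1.10 ± 0.22 (SE, edgeR adjusted p = 0.00502) in hypoxia and 1.03 ± 0.24 in normoxia (adjusted p = 0.0307). The normoxia call was lost without KO replicate 1 (log2 fold change 0.82, adjusted p = 0.158), KO replicate 2, flox replicate 1 or flox replicate 2 (adjusted p = 0.0672, 0.13 and 0.112), and with the libraries of normoxia fitted alone (adjusted p = 0.0504). It was also lost by limma on log2(RPKM + 1) and on log2(RPKM + 0.1) (limma adjusted p = 0.0799 and 0.058).

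Klf6 (ENSMUSG00000000078, chromosome 13), a relative induced in injured endothelium, had a smaller fold change. It was at 83.4, 62.3, 72.1 and 68.0 CPM in KO hypoxia and 52.7, 50.3 and 57.3 CPM in flox hypoxia. Levels in normoxia were 65.1, 63.4 and 59.3 CPM in KO and 46.6, 47.5 and 48.3 CPM in flox. Spread within groups was small in normoxia and wider in KO hypoxia (SD 8.90 CPM), and KO did not overlap flox. The log2 fold change was 0.42 ± 0.08 (SE, edgeR adjusted p = 0.00228) in hypoxia and 0.40 ± 0.08 in normoxia (adjusted p = 0.0145). In normoxia the call was lost when the 4 libraries without Y-linked counts were left out (log2 fold change 0.45, adjusted p = 0.0688) and without KO replicate 1, KO replicate 2 or flox replicate 1 (adjusted p = 0.0733, 0.0567 and 0.0633).

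**Figure D2:**
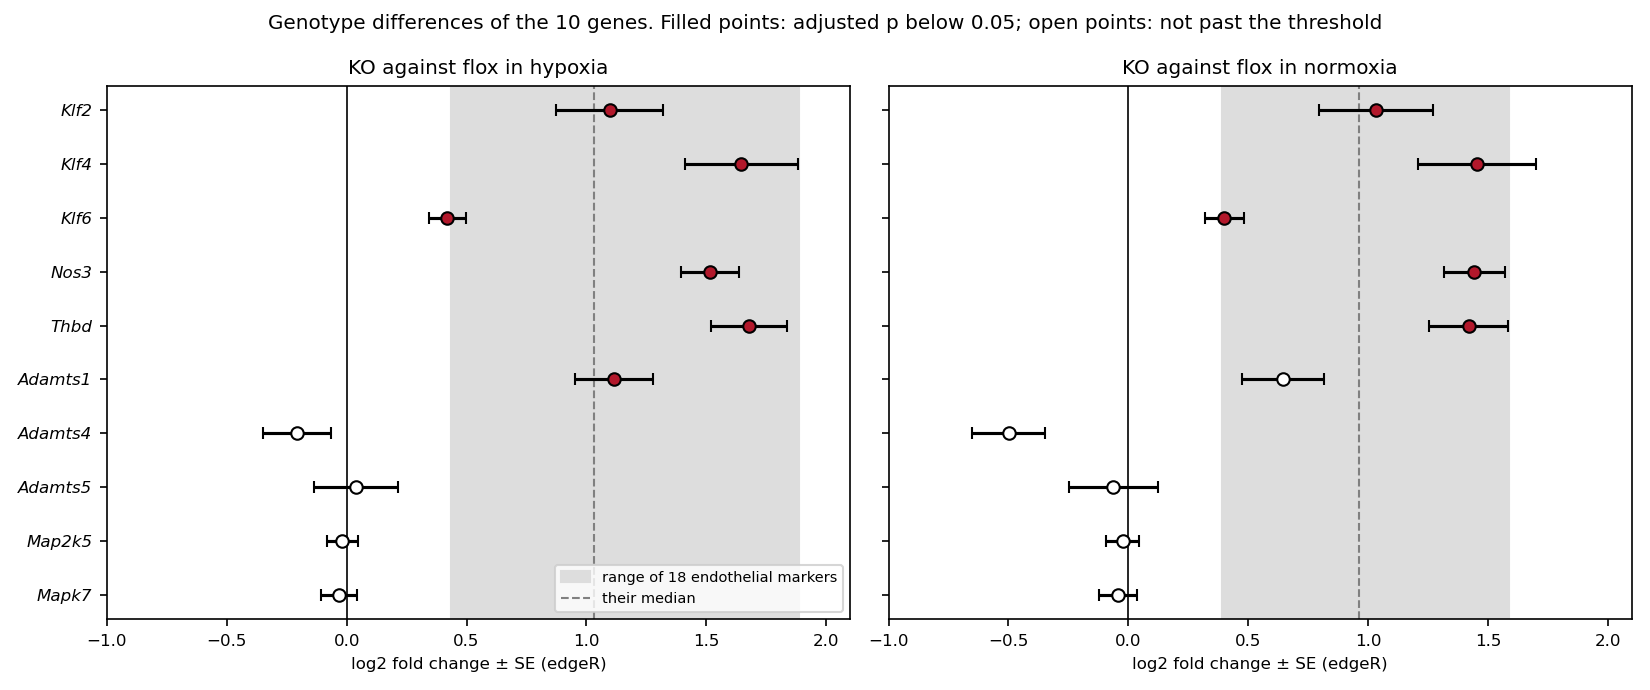
Log2 fold change of KO against flox (horizontal axis, edgeR) with its SE for each of the 10 genes, in hypoxia (left) and in normoxia (right), where filled points were called at an adjusted p below 0.05, the grey band is the range of 18 endothelial markers and the dashed line their median. Klf4, Nos3 and Thbd sit near the top of the band, Klf2 and Adamts1 within it, Klf6 at its lower edge, and Adamts4, Adamts5, Map2k5 and Mapk7 below it.

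The KLF-responsive genes Nos3 and Thbd had fold changes close to that of Klf4. Thbd (ENSMUSG00000074743, chromosome 2) was at 83.0, 48.7, 57.7 and 48.6 CPM in KO hypoxia and 18.1, 16.1 and 21.7 CPM in flox hypoxia. Its normoxia levels were 52.6, 48.2 and 45.7 CPM in KO and 18.0, 19.3 and 17.5 CPM in flox. The highest flox library, at 21.7 CPM, was far below the lowest KO library, at 45.7 CPM. The log2 fold change was 1.68 ± 0.16 (SE, edgeR adjusted p = 1.45e-05) in hypoxia and 1.42 ± 0.16 in normoxia (adjusted p = 0.000213).

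Nos3 (ENSMUSG00000028978, chromosome 5) was at 27.1, 18.9, 19.9 and 20.6 CPM in KO hypoxia and 7.87, 6.32 and 8.55 CPM in flox hypoxia. At normal oxygen Nos3 had 16.1, 15.7 and 14.9 CPM in KO and 5.83, 5.83 and 5.54 CPM in flox. The 4 groups did not overlap, in the order KO hypoxia, KO normoxia, flox hypoxia and flox normoxia from high to low. The log2 fold change was 1.51 ± 0.12 (SE, edgeR adjusted p = 5.16e-06) in hypoxia and 1.44 ± 0.13 in normoxia (adjusted p = 3.88e-05). Nos3 overlaps Atg9b and Gm15587 in the annotation, and how strand was used in counting is not given in the sources used here, so shared reads cannot be told apart. Atg9b, an autophagy gene, had a log2 fold change of -0.17 ± 0.08 over both oxygen levels (adjusted p = 0.21), and Gm15587 was under 1 CPM in every library.

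The 3 proteases went separate ways. Adamts1 (ENSMUSG00000022893, chromosome 16) was at 57.2, 32.9, 41.2 and 46.5 CPM in KO hypoxia and 21.1, 18.0 and 22.6 CPM in flox hypoxia. Normoxia libraries had 27.8, 26.4 and 32.9 CPM in KO and 16.2, 16.5 and 22.9 CPM in flox. KO lay above flox at both oxygen levels, with a smaller gap in normoxia, where flox replicate 3 was the highest of its group. The log2 fold change was 1.11 ± 0.16 (SE, edgeR adjusted p = 0.000408) in hypoxia and 0.64 ± 0.17 in normoxia, which missed the threshold (adjusted p = 0.0649). The normoxia value passed without flox normoxia replicate 3 (0.83, adjusted p = 0.0253), without KO hypoxia replicate 1 (0.0182) or 2 (0.0238) and with the libraries of normoxia fitted alone (0.0277). The difference between both oxygen levels was itself 0.47 ± 0.23 and was not called (unadjusted p = 0.0618, adjusted p = 0.688).

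Adamts4 (ENSMUSG00000006403, chromosome 1) was at 28.1, 27.4, 34.4 and 22.1 CPM in KO hypoxia and 30.7, 35.4 and 31.0 CPM in flox hypoxia. In normoxia it was at 23.7, 29.4 and 23.0 CPM in KO and 27.5, 39.2 and 40.9 CPM in flox. KO and flox overlapped at each oxygen level. It was not called in hypoxia, at a log2 fold change of -0.21 ± 0.14, or in normoxia, at -0.50 ± 0.15 (SE, edgeR adjusted p = 0.436 and 0.122). The mean over both was -0.35 ± 0.10 and was called (adjusted p = 0.0395), but the call was lost in 10 of the 13 fits that left out 1 library, with adjusted p up to 0.103, and when the 4 libraries without Y-linked counts were left out (-0.27, adjusted p = 0.126). The 3 fits that preserved it left out KO hypoxia replicate 3, KO normoxia replicate 2 or flox normoxia replicate 1. Limma on log2(RPKM + 1) and on log2(RPKM + 0.1) also did not call Adamts4 over both oxygen levels (limma adjusted p = 0.0888 and 0.0814). In brain, Adamts4 is known from oligodendrocytes. Of 7 oligodendrocyte markers 1, Mag, was called lower over both oxygen levels, where 3.7% of all genes were. At an unadjusted p under 0.05, 4 of the 7 were lower, and the share of all genes at that p is not given here. Summed, these markers were at 3357 to 4107 CPM in KO hypoxia against 3856 to 4361 in flox hypoxia, and 3175 to 3901 in KO normoxia against 3818 to 5076 in flox normoxia. Their part in the Adamts4 values was not tested.

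Adamts5 (ENSMUSG00000022894, chromosome 16), the main cartilage aggrecanase in mice, was the scarcest of the 10. It was at 3.88, 2.74, 3.09 and 3.70 CPM in KO hypoxia and 3.26, 3.47 and 3.03 CPM in flox hypoxia. In normoxia it was at 3.73, 2.15 and 3.27 CPM in KO and 3.07, 2.85 and 3.53 CPM in flox. The groups overlapped, and the log2 fold change over both oxygen levels was -0.01 with a 95% interval from -0.28 to 0.26, from 127 to 236 counts per library. It overlaps Gm46558 in the annotation.

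Levels per length, in RPKM, can be compared between genes. In KO hypoxia Klf2 was the most abundant of the 10, at 26.5 ± 5.80 RPKM, followed by Klf6 at 16.5 ± 1.91, Thbd at 16.2 ± 4.23 and Klf4 at 10.6 ± 3.17 RPKM (SD, n = 4). In flox normoxia Klf6 led with 10.7 ± 0.197 RPKM, ahead of Adamts4 at 7.41 ± 1.51 and Klf2 at 7.23 ± 2.71 RPKM (SD, n = 3). Adamts1 was above Adamts4 in KO hypoxia, at 8.48 ± 1.88 against 5.89 ± 1.05 RPKM, and below it in flox normoxia, at 3.47 ± 0.689 against 7.41 ± 1.51 RPKM. Adamts5 stayed between 0.282 and 0.314 RPKM as a group mean.

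Endothelial transcripts as a whole were also higher in KO. All 18 pan-endothelial markers were called higher over both oxygen levels, where 7.78% of all genes were. These markers had a median log2 fold change of 1.03 in hypoxia and 0.96 in normoxia. Their summed level was 585 to 849 CPM in KO hypoxia against 343 to 377 in flox hypoxia, and 451 to 515 in KO normoxia against 264 to 276 in flox normoxia. In bulk tissue more endothelial cells and more RNA of a gene per cell cannot be told apart. Set among the markers, Klf4, Nos3 and Thbd each rose more than 17 of the 18 in hypoxia and 16 of the 18 in normoxia. Klf2 rose more than 10 of them in hypoxia and 11 in normoxia, Adamts1 more than 10 and 3, and Klf6 more than 0 and 1. Map2k5, Mapk7, Adamts4 and Adamts5 were below every marker in both.

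To put this on the scale of single libraries, the log2 CPM of each gene was taken relative to the mean log2 CPM of the 18 markers in the same library. Genotype labels were permuted within each oxygen level in a two-sided exact test (700 assignments, smallest possible p = 0.00143). The test was run for all 10 genes, without adjustment. The scale falls for any gene that does not change while the markers rise, and it gives no level per endothelial cell.

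On this scale Klf4 was at 0.39, -0.02, 0.08 and 0.07 in KO hypoxia and -0.37, -0.70 and -0.41 in flox hypoxia. In normoxia it was at 0.31, 0.13 and 0.15 in KO and -0.64, -0.70 and 0.16 in flox, where flox replicate 3 reached into the KO range. The mean difference of KO and flox was 0.61 (exact permutation p = 0.00429). Nos3 was higher by 0.51 and Thbd by 0.57 (exact permutation p = 0.00143 each), and their KO and flox libraries did not overlap at either oxygen level. Klf2 differed by 0.12 (exact permutation p = 0.48) and Adamts1 by -0.08 (exact permutation p = 0.54), both with overlapping libraries. Over 18 recomputations the Klf2 difference ran from 0.01 to 0.25 and that of Adamts1 from -0.16 to -0.01. The difference was -0.55 for Klf6, -0.98 for Map2k5, -0.99 for Mapk7, -0.98 for Adamts5 and -1.31 for Adamts4 (exact permutation p = 0.00143 each). The marker mean itself was 4.62 to 5.15 in KO hypoxia against 3.73 to 3.91 in flox hypoxia. In normoxia it was 4.23 to 4.42 in KO against 3.36 to 3.46 in flox. An unchanged gene thus reaches this p through the markers alone, so it is no separate result about these 5 genes.

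The gap between Klf4 and Klf2 was chosen for a test after these values were seen. Klf4 minus Klf2, in log2 CPM, was higher in KO by 0.49, with 0.54 in hypoxia and 0.44 in normoxia (two-sided exact permutation p = 0.00429). It needs no endothelial marker, and stayed between 0.43 and 0.55 in 18 recomputations, which included leaving out each library. The libraries that prompted the choice also gave the test and the recomputations, so neither is independent support for the gap.

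**Figure D3:**
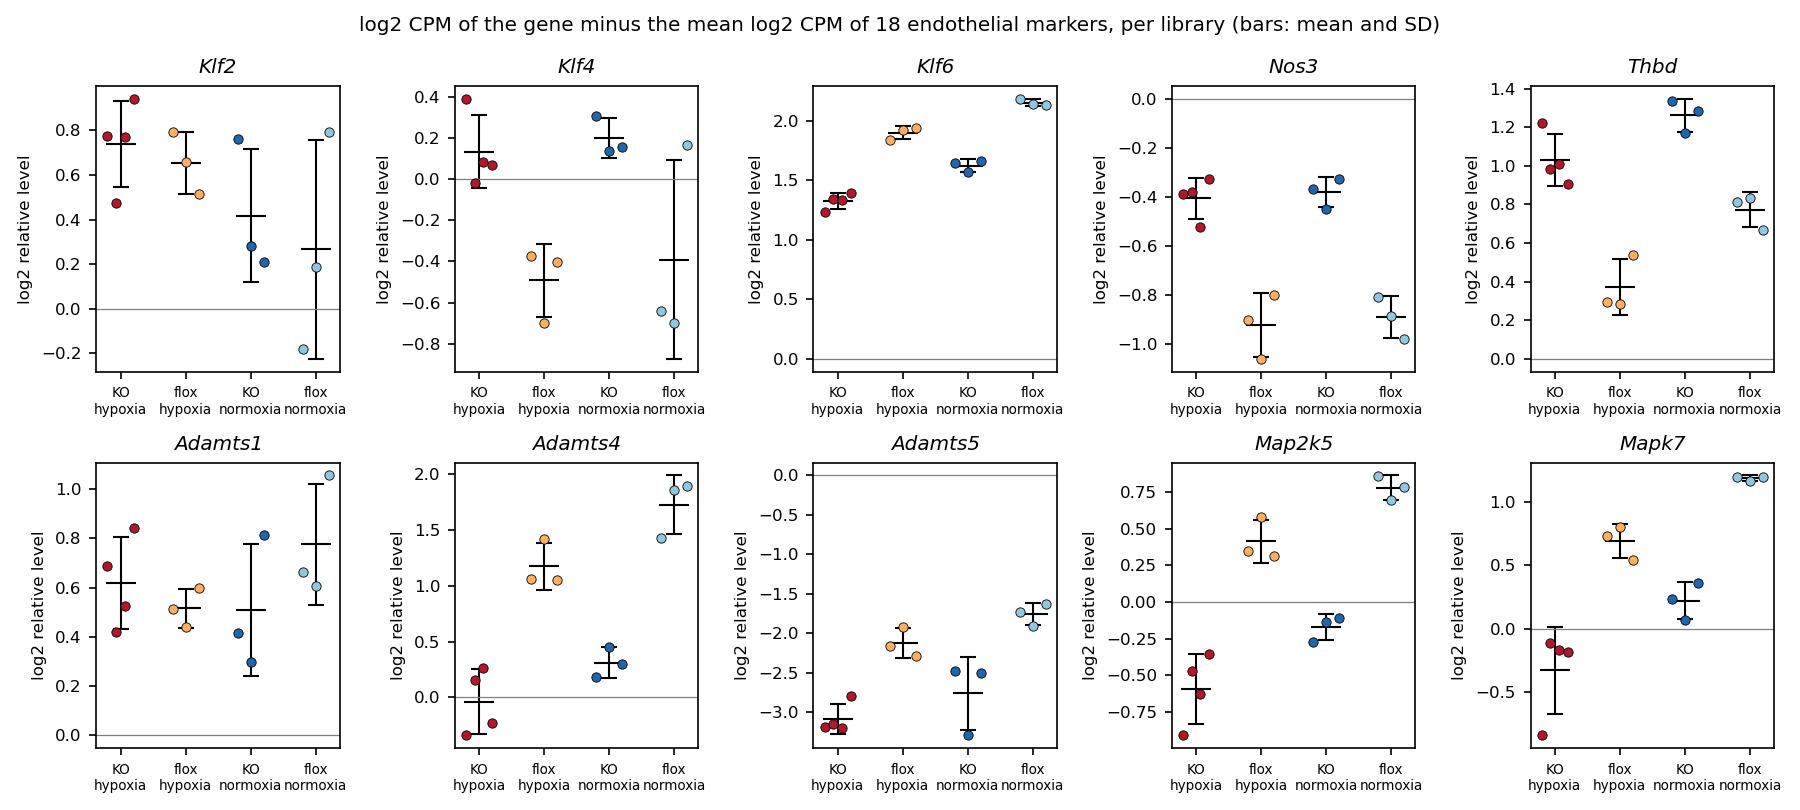
Log2 CPM of each gene minus the mean log2 CPM of 18 endothelial markers in the same library (vertical axis), with points for libraries and bars for the group mean and SD, by group (KO hypoxia, flox hypoxia, KO normoxia, flox normoxia). Klf4, Nos3 and Thbd are higher in KO on this scale, and Klf2 and Adamts1 overlap between genotypes. The other 5 genes are lower on this scale in KO, where the markers themselves are higher.

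Other cell types and states moved with the genotype too, and none of their markers was at 0 in a whole group. Summed mural cell markers were 401 to 540 CPM in KO hypoxia against 265 to 269 in flox hypoxia, and 351 to 380 in KO normoxia against 204 to 236 in flox normoxia, with 7 of 10 called higher over both oxygen levels. Microglia markers had 7 of 8 called higher (5 without the 4 libraries that lack Y-linked counts), astrocyte markers 5 of 8 higher and 2 lower, and neuron markers 0 of 7 either way, also at an unadjusted p under 0.05. Of all genes tested 7.78% were called higher and 3.7% lower over both oxygen levels, with all libraries. Erythroid genes, all 6 called higher, reached 17400 CPM in KO hypoxia replicate 1, and 3409 to 4168 in the other 3 KO hypoxia libraries, against 449 to 671 in flox hypoxia. In normoxia they were at 974 to 1701 CPM in KO against 139 to 261 in flox. That library was also the highest of its group for Klf2, Klf4, Klf6, Nos3, Thbd and Adamts1. Without it all 6 were still called in hypoxia, at log2 fold changes of 0.97 for Klf2, 1.41 for Klf4, 0.34 for Klf6, 1.39 for Nos3, 1.47 for Thbd and 0.97 for Adamts1. The part of the other cell types in the values of the 10 genes was not tested.

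Klf2, Klf4 and Klf6 can also respond as immediate early genes, which rise within minutes of stimulation. Summed over 12 such genes, other than the KLFs, levels were 900, 1865, 1813 and 1610 CPM in KO hypoxia against 2343, 2202 and 2195 CPM in flox hypoxia. In normoxia they were 1130, 931 and 890 CPM in KO against 815, 736 and 2211 CPM in flox. Flox normoxia replicate 3 stood far above its group there, and was the highest of its group for 8 of the 10 genes, Klf2, Klf4, Klf6 and Adamts1 among them. None of the 12 was called between genotypes over both oxygen levels. At an unadjusted p under 0.05, 0 were higher and 4 lower, and the share of all genes at that p is not given here. Over both genotypes 4 were called higher in hypoxia (7 without KO hypoxia replicate 1), where 0.755% of all genes were with all libraries. The fit was repeated without the 4 libraries that lack Y-linked counts, flox normoxia replicate 3 among them. Then 3 of the 12 were called lower in KO in hypoxia, 3 higher in KO in normoxia and 3 in the interaction. With all libraries 0 were in each of these, also at an unadjusted p under 0.05. In the repeated fit 9 were called higher in hypoxia over both genotypes. The share of all genes called in that fit is not given here, so these counts have no background beside them. The part of this state in the KLF levels was not tested.

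**Figure D4:**
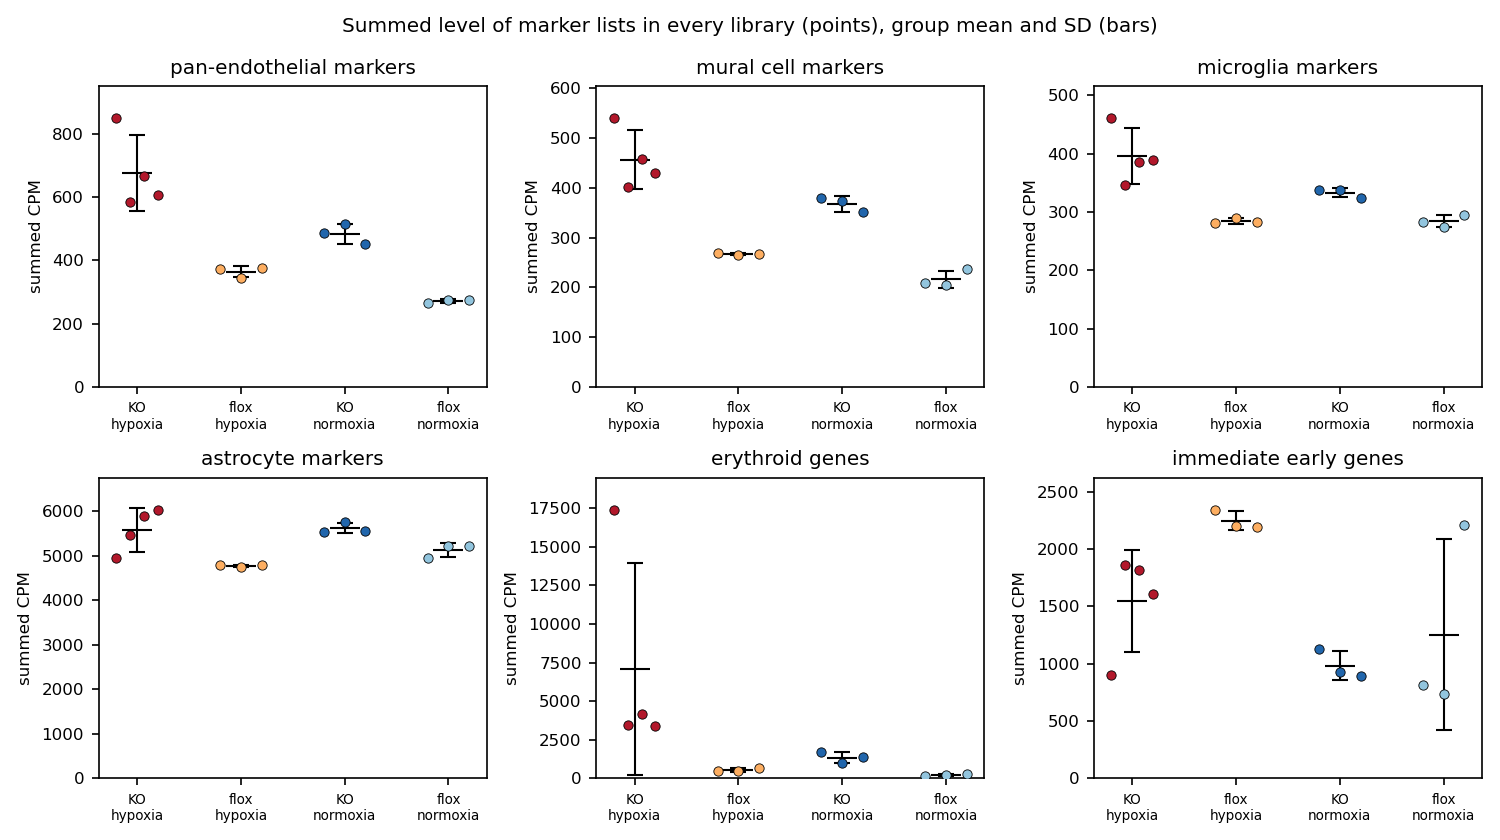
Summed CPM of 6 lists of marker genes (vertical axis) in every library, with the mean and SD of each group as bars (KO hypoxia, flox hypoxia, KO normoxia, flox normoxia). Endothelial, mural, microglia and erythroid sums are higher in KO than in flox at both oxygen levels, KO hypoxia replicate 1 has the highest erythroid sum, and flox normoxia replicate 3 the highest immediate early sum of its group.

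Hypoxia moved fewer of the 10. Over both genotypes Klf2 rose by a log2 fold change of 0.78 ± 0.16 and Nos3 by 0.44 ± 0.09 (SE, edgeR adjusted p = 0.0322 and 0.0275), so 2 were called higher and 0 lower, where 0.755% of all genes were higher and 0.298% lower. Klf2 rose more than each of the 18 endothelial markers, whose median was 0.47, and Nos3 more than 7 of them. Taken apart, Klf2 had a larger fold change than 16 of the 18 in KO and than 17 of the 18 in flox. Leaving out 1 library lost the call of Klf2 in 8 of 13 fits and that of Nos3 in 6 of 13, with adjusted p up to 0.0996 and 0.0832. Without the 4 libraries that lack Y-linked counts Nos3 was not called either (adjusted p = 0.0949). By limma on log2(RPKM + 1) neither Klf2 nor Nos3 was called (limma adjusted p = 0.0654 each).

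Within KO mice 0 of the 10 were called by edgeR in hypoxia against normoxia, where 0.622% of all genes were called higher and 0.275% lower. At an unadjusted p under 0.05, 4 were higher (Klf2, Klf6, Nos3 and Adamts1) and 0 lower, against 7.98% and 6.28% of all genes. DESeq2 called 2 (Nos3 and Adamts1), where it called 3.35% of all genes, and limma on log2(RPKM + 1) called 0, with 0.204% of all genes. Adamts1 lay above normoxia in each KO hypoxia library, narrowly for replicate 2, at a log2 fold change of 0.62 ± 0.16 (SE, edgeR adjusted p = 0.0785). Within flox mice 0 were called by edgeR, against 0.0222% of all genes higher and 0% lower. At an unadjusted p under 0.05 Klf2 and Nos3 were higher and none of the 10 lower, where 3.7% of all genes were higher and 2.95% lower. DESeq2 and limma on log2(RPKM + 1) also called 0 of the 10 there, with 0.298% and 0.00889% of all genes called. Adamts1 in flox had a log2 fold change of 0.15 ± 0.17 and overlapped between oxygen levels.

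Whether the genotype difference changed with oxygen was tested by the interaction, where edgeR called 0 of the 10 and 0% of all genes. None of the 10 had an unadjusted p under 0.05, where 7.26% of all genes had, a share at which none of 10 is near the background. DESeq2 and limma on log2(RPKM + 1) also called 0 of the 10, with 0.0222% and 0.00889% of all genes called. The interaction was 0.06 ± 0.32 for Klf2, 0.19 ± 0.33 for Klf4, 0.26 ± 0.22 for Thbd and 0.07 ± 0.17 for Nos3 (log2, SE). The 95% interval for Klf4 ran from -0.52 to 0.90, so these libraries leave a wide range for it.

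Genes around the axis were read from lists of known pathway members, with counts given for KO against flox over both oxygen levels. Of 9 genes upstream of KLF2 and KLF4, 1 was called higher and 1 lower, where 7.78% of all genes were higher and 3.7% lower. At these shares 1 each way among 9 genes, or among the 13 other KLF genes below, is near the background. Heg1, the receptor that anchors the CCM complex at endothelial junctions, was at 74.6 ± 14.7 CPM in KO hypoxia against 36.7 ± 5.59 in flox hypoxia, and 60.3 ± 3.13 in KO normoxia against 33.4 ± 2.56 in flox normoxia, a log2 fold change of 0.94 ± 0.09 (SE, edgeR adjusted p = 4.97e-06). Mef2d, a MEF2 factor, had -0.13 ± 0.03 (adjusted p = 0.0106), and neither Krit1 (-0.09 ± 0.04) nor Map3k2 (-0.14 ± 0.06), a kinase above MEK5, was called. Of 13 other KLF genes Klf3 rose (0.36 ± 0.05, adjusted p = 0.000112) and Klf13 fell (-0.12 ± 0.03, adjusted p = 0.0223), while Klf16 (-0.11 ± 0.04) and Klf15 (-0.20 ± 0.08) were not called. The median of the upstream list was -0.00 and that of the KLF list -0.04, where that of all genes was -0.01. Without the 4 libraries that lack Y-linked counts neither Mef2d nor Klf13 was called.

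Further genes that KLF2 or KLF4 are reported to raise in endothelium had 3 of 10 called higher and 0 lower, with a median of 0.13. Of all genes 7.78% were called higher and 3.7% lower. The 3 called were Tek, the angiopoietin receptor (1.03 ± 0.08), the chemokine Cxcl12 (0.39 ± 0.06) and the vasodilator Adm (1.00 ± 0.30). Arg2 (-0.23 ± 0.11) and Aqp1 (0.39 ± 0.17) were not called. Without KO hypoxia replicate 1 the numbers were 2 higher and 0 lower, and without the 4 libraries that lack Y-linked counts 4 and 1. The share of all genes in those fits is not given here. Of 8 genes that KLF2 or KLF4 are reported to lower, 4 were called higher and 0 lower, against the same 7.78% and 3.7% of all genes. Their median was 0.67. Without the 4 libraries that lack Y-linked counts the numbers were 3 and 0, again with no share of all genes. The 4 called higher with all libraries were the growth factor receptor Kdr (0.97 ± 0.08), the adhesion molecule Vcam1 (0.60 ± 0.09), the vasoconstrictor Edn1 (0.74 ± 0.17) and the chemokine Ccl2. Ccl2 had 103 counts over the 4 KO hypoxia libraries against 11 over the 3 of flox hypoxia, and 29 over KO normoxia against 3 over flox normoxia (edgeR adjusted p = 0.0135). Tek and Kdr are also among the endothelial markers, which all rose. Ptx3 (0.46 ± 0.35), a pentraxin of inflammation, was not called.

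Of the 16 other ADAMTS proteases 0 were called higher and 2 lower by edgeR, where 7.78% and 3.7% of all genes were. At an unadjusted p under 0.05, 4 were higher and 4 lower, and the share of all genes at that p is not given here. The called ones were Adamts20 (-0.22 ± 0.05) and Adamts3 (-0.24 ± 0.07), while Adamts10 (0.19 ± 0.06) and Adamts7 (0.61 ± 0.20) missed the threshold (adjusted p = 0.0515 and 0.0556). Without the 4 libraries that lack Y-linked counts 1 of the 16 was called higher and 0 lower, and without KO hypoxia replicate 1 the numbers were 0 and 3. The share of all genes in those fits is not given here. The median of the 16 was 0.12. Of 16 substrates and matrix partners 2 rose and 0 fell, with a median of 0.09. Timp3, an inhibitor of ADAMTS proteases, was at 107 ± 29.5 CPM in KO hypoxia against 55.7 ± 1.06 in flox hypoxia, and 77.2 ± 2.94 in KO normoxia against 61.1 ± 4.16 in flox normoxia (0.64 ± 0.10, adjusted p = 0.000433). Cd44, a hyaluronan receptor, rose by 0.65 ± 0.11 (adjusted p = 0.0013), while Hapln1 (0.20 ± 0.07) and Fbln1 (0.42 ± 0.14) were not called. Vcan, which encodes versican and was named after its value was seen, was at 23.3 ± 2.24 CPM in KO hypoxia against 22.8 ± 0.732 in flox hypoxia, and 23.7 ± 2.47 in KO normoxia against 24.0 ± 2.50 in flox normoxia. Its log2 fold change was 0.00 with a 95% interval from -0.13 to 0.14.

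**Figure D5:**
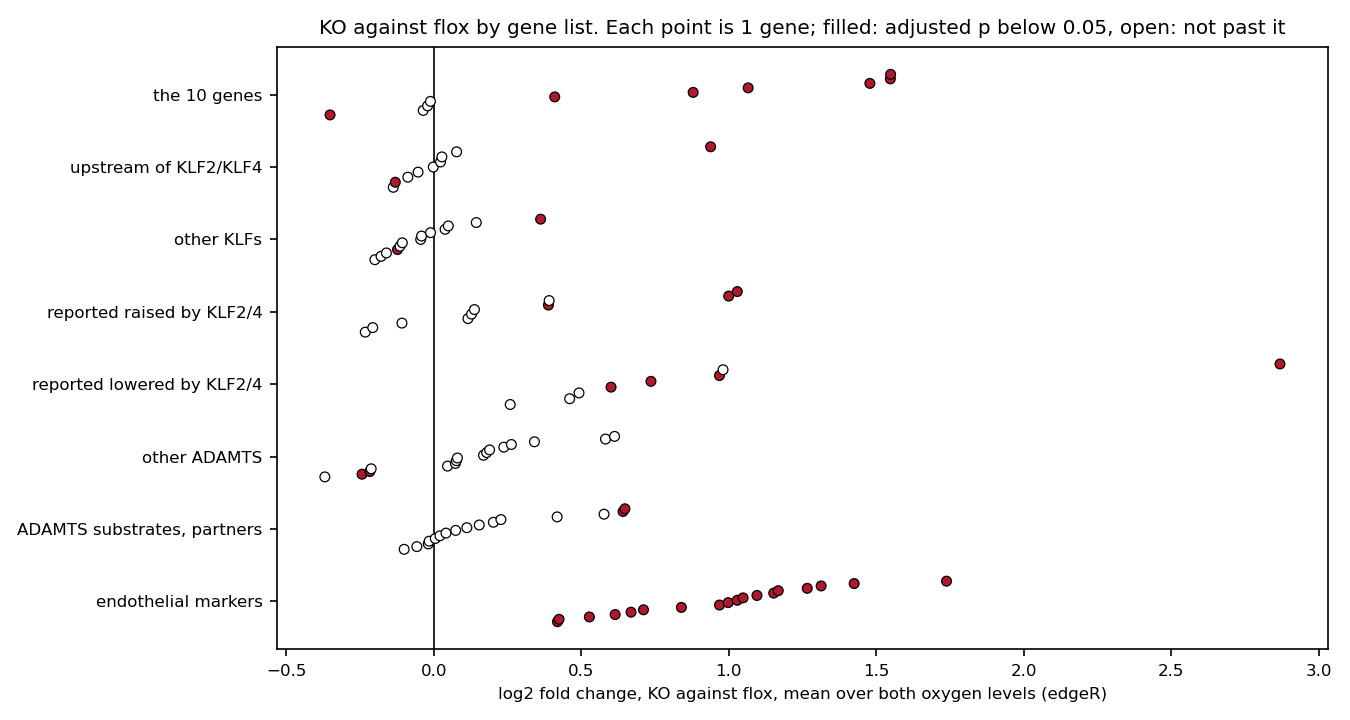
Log2 fold change of KO against flox over the mean of both oxygen levels (horizontal axis, edgeR) for each tested gene among the 10 genes, 6 lists around the axis and the endothelial markers, with 1 point a gene, filled where the adjusted p was below 0.05. All 18 endothelial markers are filled and above 0, the point farthest right is Ccl2 with its few counts, and most genes of the upstream, KLF, ADAMTS and substrate lists lie near 0 and are open.

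The genes whose levels ran most like those of Klf2, Klf4 and Adamts1 were found among 14011 genes by the smallest root mean square difference of log2 CPM over the 13 libraries, after taking off the mean of each gene. For Klf2 these were Igfbp7, Tmem252, Pecam1, Apln and Kdr, at 0.24 to 0.27, where Klf2 itself spread by 0.76. For Klf4 they were Nes, S100a11, Bcl6b, Acvrl1 and Ctsh, at 0.21 to 0.24 against an own spread of 0.87. For Adamts1 they were Cavin2, Cnn2, Lrrk1, Hspb1 and Tpm4, at 0.13 to 0.15 against 0.55. Among the 10 genes themselves, the closest pairs were Map2k5 with Mapk7 (0.13) and Nos3 with Thbd (0.17), while Klf4 was nearer to Nos3 (0.25) and Thbd (0.27) than to Klf2 (0.36). All points share the same libraries and their depth, and these distances are a description.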

How the data were processed

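The authors deposited raw counts per gene and RPKM values (reads scaled to gene length and library size) for 13 libraries of mouse brain tissue. HISAT2, edgeR and the build GRCm39 are named in the submitters' processing notes, and the sources used here do not give the strand setting or annotation of the counting. The kit was stranded and RNA had an integrity number above 8.0, per the labels. Groups came from sample titles.

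From the deposited counts, 1 edgeR 4.0.16 model (R 4.3.3) was fitted to 22507 genes that passed filterByExpr, with TMM factors, 1 mean per group and Benjamini-Hochberg adjustment over all genes. Intervals are 95% t intervals. RPKM values served to compare levels between genes and in limma 3.58.1. Alternatives were RLE factors, no composition factor, other filters, DESeq2 1.42.0, limma, a sex term, a replicate block, subsets and leaving out each library. The fit was checked on counts simulated with the same spread for every gene, so that check does not bear on calls near the threshold. Log2 CPM used a prior count of 2.

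Named are all 10 genes and, of each list, up to 4 called genes of smallest adjusted p and 2 not called, and the 5 genes most like Klf2, Klf4 and Adamts1. Pdcd10, Vcan, overlapping genes and the Klf4 to Klf2 gap were added after values were seen. Members and lists were chosen with earlier results of these data known. Intervals cover the spread between libraries. Replicate pairs differed by at least 4.44 times the counting noise (chi-square per degree of freedom), so no library was counted as a repeat of another.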

Additional observations from a re-analysis of the deposited data

How the results depend on the processing

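The call of 6 genes higher in KO hypoxia was the same in all 24 alternatives. The counts that follow take calls in either direction. In normoxia the count of 5 ran from 3 to 6 when 1 library was left out, with 3 without KO normoxia replicate 1 or 2. It ran from 4 to 7 in the other alternatives. Adamts4 was among the normoxia calls, as lower, with no filter on low counts and without flox normoxia replicate 1. For KO against flox over both oxygen levels the count stayed at 6 or 7, where the 7 included Adamts4 as lower. The hypoxia effects depended most on the processing. Within KO, the count of 0 became 1 without a composition factor, 4 with no filter on low counts and 2 by DESeq2, and ran from 0 to 3 when 1 library was left out, with 3 without KO hypoxia replicate 2 and 2 without flox normoxia replicate 3. Within flox it became 1 with no filter. Over both genotypes the count of 2 became 5 with no filter, 1 in the libraries with Y-linked transcripts, 0 by limma on log2(RPKM + 1) and 0 on log2(RPKM + 0.1), and ran from 0 to 4 when 1 library was left out. It was 4 without KO hypoxia replicate 2, 1 when KO hypoxia replicate 3 or flox hypoxia replicate 2 was missing, and 0 when any of these was missing: replicates 2 and 3 of KO normoxia, 1 and 3 of flox hypoxia, 1 and 2 of flox normoxia. The labels do not say whether replicate numbers pair the libraries. Of 18 same-numbered pairs, 11 had deviations from their group means that correlated above 0.1, over a range from -0.08 to 0.52. The largest values, 0.45 to 0.52, were among replicates 3 of KO hypoxia, KO normoxia and flox normoxia, which all lack Y-linked counts. Pairs of different numbers were not compared, so these values cannot decide whether the numbers pair libraries. With a replicate block the counts were 6 in hypoxia, 6 in normoxia and 7 over both for KO against flox, and 1 for hypoxia over both genotypes, where Klf2 was lost (adjusted p = 0.054). The cause of these shifts was not tested. Of 1650 recomputed gene values 1504 held their direction and their side of the threshold, 44 lost a call, 26 gained one and 76 uncalled values changed sign. No called value changed sign. The levels relative to endothelial markers held their direction and their side of the threshold in all 180 recomputations, though those of Klf2 and Adamts1, not past it, moved by more than 1.5 times. The number of libraries, 3 or 4 a group, limits the precision, and Adamts5 has the fewest counts of the 10 genes.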
